A study of Danio rerio with 20 samples.

Results

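The 10 genes followed here are genes of hepatic stellate cells and of the extracellular matrix measured in zebrafish larval liver: hand2, pdgfrb, col1a1a, col1a1b, col1a2, col5a1, col6a1, col6a2, fn1a and sparc. They were chosen by name and matched to 10 of the 32105 Ensembl gene identifiers counted in the series, and all 10 were among the 16389 genes with enough counts to be tested. Symbols follow zebrafish usage. The gene name table lists col1a1b as COL1A1 (ENSDARG00000035809) and fn1a as FN1 (ENSDARG00000006526). RNA was polyA-selected and sequenced from pools of 12 to 15 livers dissected from larvae at 5 days post fertilization (dpf), and 1 pool made 1 library. Wild-type larvae were of the TAB5 strain. Mutant larvae came from an incross of fish homozygous for an 8 bp CRISPR deletion with a premature stop in exon 3 of as3mt, the arsenite methyltransferase gene, carried through the whole body on an ABNYU background. Larvae of both genotypes were given 0 mM or 1 mM sodium arsenite starting 96 h post fertilization, and livers were taken at about 119 h, which gave 4 groups of 5 libraries. The mutant line and its strain background differ from wild type together and cannot be told apart. The labels do not say that the pools of a group came from separate clutches, so p-values measure the spread between these pools.

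Hepatic stellate cells are the mesenchymal, vitamin A-storing pericytes of the liver sinusoids. They respond to PDGF and TGF-beta, and when activated by injury they deposit fibrillar collagen, the basis of liver fibrosis. In zebrafish they are commonly marked by hand2 reporters. Fibrillar collagens I and V, the beaded filaments of collagen VI, fibronectin and collagen-binding glycoproteins such as SPARC make up much of the interstitial matrix, but these genes are also used by cells outside the stellate lineage. Plasma fibronectin in particular is a secretory product of hepatocytes.

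Library totals ran from 25406597 to 42047561 counts. Levels are given as CPM after TMM scaling, that is, counts relative to a library size that sets the bulk of genes equal between libraries. CPM is not corrected for gene length, so levels of different genes are not compared. Scaled to total counts instead, the median log2 difference of all tested genes moved from 0.03 to 0.75 for arsenite in wild type and from 0.00 to 0.83 for arsenite in mutants, so each direction is relative to the bulk of genes. Transcripts of as3mt, the targeted gene, were counted in all libraries. They stood at 119 to 134 CPM in unexposed wild type and at 61.8 to 81.1 in unexposed mutants, and at 29.8 to 73.6 and 8.62 to 18.7 in exposed wild type and mutants. A whole-gene count does not read the deletion itself. The genotypes did not overlap at either dose (2-sided exact permutation p = 0.0079 for each, the smallest that 5 against 5 libraries allow).

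With arsenite, most matrix genes fell in both genotypes, the stellate regulator hand2 was called lower in mutants alone, a direction that turned with total-count scaling, and the receptor gene pdgfrb was called in neither genotype. The hand2 responses were not called as different between genotypes (log2 difference -0.35 ± 0.23, edgeR adjusted p = 0.447). In wild type 6 of the 10 genes fell (col1a1b, col1a2, col6a1, col6a2, fn1a and sparc), col5a1 rose, and hand2, pdgfrb and col1a1a did not pass the edgeR quasi-likelihood test at an adjusted p under 0.05. In mutants 8 of 10 fell, those 6 with hand2 and col1a1a, none rose, and pdgfrb and col5a1 did not pass. Over all tested genes 24.6% were called down, 28.7% up and 53.3% either way in wild type, and 30.3% down, 31.5% up and 61.8% either way in mutants. Exposed and unexposed libraries did not overlap for 5 of the 10 genes in wild type, where 34.7% of tested genes did not, and for 7 of 10 in mutants, where 48.2% did not. The median log2 difference of the 10 genes was -0.80 in wild type and -1.40 in mutants, beside 0.03 and 0.00 for all tested genes. With total counts these medians were -0.07 and -0.58 for the 10 genes, beside 0.75 and 0.83 for all tested genes. Scaled to total counts the calls were 4 down and 3 up in wild type, where 8.01% of tested genes were called down and 59.4% up, and 5 down and 1 up in mutants, where 12.0% were called down and 60.1% up. In bulk libraries, fewer cells of a type and less RNA per cell cannot be told apart.

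**Figure D1:**
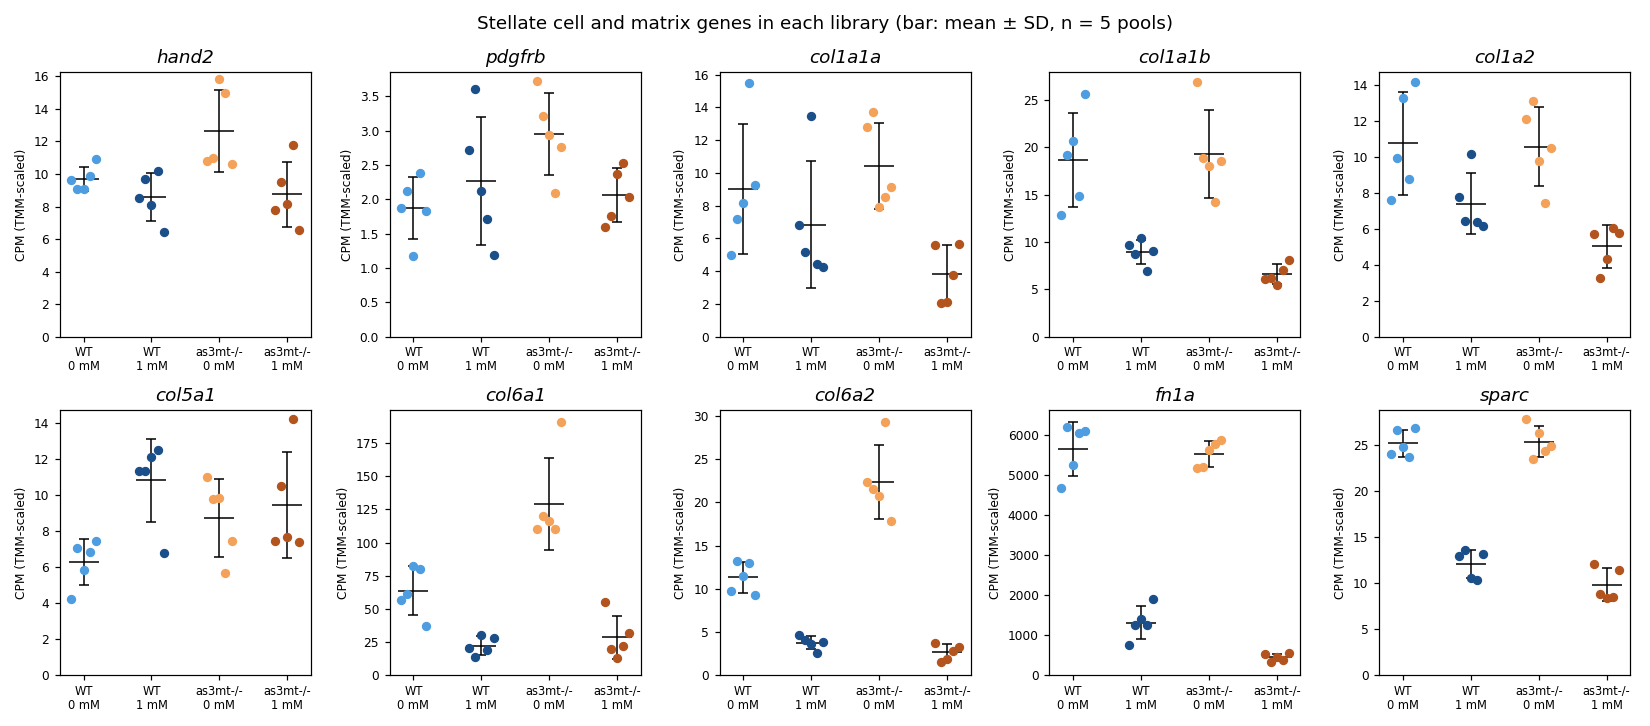
CPM of each of the 10 genes (y axis, linear, from 0) in the 4 groups (x axis). Each point is 1 library, and the bar and whiskers are mean ± SD of 5 libraries; col1a1b, col6a1, col6a2, fn1a and sparc separate exposed from unexposed libraries in both genotypes, whereas hand2 and pdgfrb overlap.

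Among the stellate identity genes, hand2 encodes a basic helix-loop-helix transcription factor. Its levels in replicates 1 to 5 were 9.63, 9.09, 9.10, 9.85 and 10.9 CPM in unexposed wild type and 8.51, 9.70, 8.12, 10.2 and 6.44 CPM in exposed wild type. These groups overlapped, and the log2 difference of -0.18 ± 0.16 (SE) did not pass (edgeR adjusted p = 0.375). Mutants held 10.8, 11.0, 15.8, 15.0 and 10.6 CPM without arsenite and 7.77, 9.49, 8.16, 11.8 and 6.58 CPM with it. Exposed mutant replicate 4 lay within the unexposed range, and hand2 fell by 0.53 ± 0.16 on the log2 scale (edgeR adjusted p = 0.00765). Under total-count scaling the sign turned, with a log2 difference of 0.55 in wild type (edgeR adjusted p = 0.0137) and 0.32 in mutants (edgeR adjusted p = 0.131). As deposited, hand2 had 189 to 311 counts per unexposed and 243 to 520 per exposed wild-type library.

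The PDGF receptor gene pdgfrb, whose ligand drives recruitment and growth of pericytes and stellate cells, rests on 31 to 160 counts per library. Wild-type libraries held 1.18 to 2.38 CPM without and 1.19 to 3.61 CPM with arsenite, and mutants 2.95 ± 0.601 and 2.06 ± 0.394 CPM (SD, n = 5). The ranges of the compared groups all overlapped. The log2 differences with arsenite were 0.27 ± 0.26 in wild type (edgeR adjusted p = 0.39) and -0.51 ± 0.25 in mutants (edgeR adjusted p = 0.0851), where the fit to those groups alone (-0.52) or without unexposed mutant replicate 4 (-0.62) passed (edgeR adjusted p = 0.0348 and 0.0497). When scaled to total counts both were above 0, at 1.00 (edgeR adjusted p = 0.0032) and 0.34 (edgeR adjusted p = 0.269).

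Type I collagen, the main fibrillar collagen of scar, is made in zebrafish from the products of col1a1a, col1a1b and col1a2. All 3 genes fell in mutants, and 2 of 3 in wild type. Levels of col1a1b were 12.9, 19.2, 20.7, 14.9 and 25.6 CPM in unexposed wild type and 9.64, 8.78, 10.4, 6.94 and 9.09 CPM in exposed wild type. Mutant libraries held 14.2 to 26.9 CPM unexposed (median 18.6) and 6.13, 6.21, 5.46, 7.08 and 8.14 CPM exposed. No exposed library reached the lowest unexposed one of its genotype, and col1a1b fell by 1.06 ± 0.18 in wild type (edgeR adjusted p = 6.07e-05) and in mutants fell by 1.55 ± 0.18 (edgeR adjusted p = 3.88e-07). Scaled to total counts, the wild-type difference was -0.34 and was not called (edgeR adjusted p = 0.106), and the mutant one was -0.70 (edgeR adjusted p = 0.00164).

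The alpha 2 chain gene col1a2 moved less. It stood at 7.62 to 14.2 CPM in unexposed and 6.15 to 10.2 CPM in exposed wild type, which overlapped, and its log2 difference was -0.55 ± 0.21 (edgeR adjusted p = 0.0323). That call was lost on leaving out unexposed replicate 3 or 5 or exposed replicate 2, 4 or 5 (edgeR adjusted p = 0.0878, 0.105, 0.0705, 0.0743 and 0.0518), without the filter on low counts (edgeR adjusted p = 0.0575), and under total-count scaling, where the sign turned (0.19, edgeR adjusted p = 0.443). In mutants col1a2 went from 7.44 to 13.1 CPM down to 3.26 to 6.07 CPM without overlap (log2 difference -1.07 ± 0.21, edgeR adjusted p = 0.000163, but -0.24 and an edgeR adjusted p of 0.329 with total counts).

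The paralogue col1a1a was the most uneven of the 3. Unexposed wild-type libraries held 4.97, 7.21, 8.15, 15.5 and 9.27 CPM and exposed ones 6.83, 5.17, 13.5, 4.46 and 4.27 CPM. Single libraries stood high in both groups, and the log2 difference of -0.40 ± 0.35 did not pass (edgeR adjusted p = 0.358). In unexposed wild-type replicate 4, the library with 15.5 CPM, 17 epidermis marker genes summed to 347 CPM, against 101 to 139.8 CPM in the other 4 of its group. In exposed wild-type replicate 3, with 13.5 CPM, 24 muscle marker genes summed to 161 CPM, against 4.08 to 33.1 CPM. Leaving out the former library gave a log2 difference of -0.11 (edgeR adjusted p = 0.808), and leaving out the latter gave -0.80 (edgeR adjusted p = 0.0493). Leaving out both gave -0.52 (edgeR adjusted p = 0.178). The part of those tissues in these values was not tested. Mutants held 12.8, 13.7, 7.90, 8.56 and 9.13 CPM unexposed and 5.60, 2.09, 2.12, 3.79 and 5.68 CPM exposed, without overlap (log2 difference -1.43 ± 0.36, edgeR adjusted p = 0.00169, and -0.62 with edgeR adjusted p = 0.129 scaled to total counts). Reads shared by the similar col1a1a and col1a1b transcripts could have been split between them, since the counting rules are not given in the sources used here.

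Type V collagen starts type I fibrils and limits their width. Its alpha 1 chain gene col5a1 rose in wild type and was not called in mutants. Unexposed wild type held 4.24, 7.07, 5.84, 6.82 and 7.41 CPM and exposed wild type 11.3, 11.3, 12.1, 12.5 and 6.78 CPM. Exposed replicate 5 was the only exposed wild-type library inside the unexposed range, and col5a1 rose by 0.78 ± 0.22 (edgeR adjusted p = 0.00568). Mutant libraries held 5.66 to 11.0 CPM without and 7.37 to 14.2 CPM with arsenite, which overlapped widely (log2 difference 0.12 ± 0.22, edgeR adjusted p = 0.655). With total counts the mutant difference was 0.98 and passed (edgeR adjusted p = 0.00119). The test of the difference between the genotypes' responses gave -0.66 ± 0.31 (edgeR adjusted p = 0.262), so a rise of different size in the genotypes is not shown.

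Collagen VI forms beaded filaments near cell surfaces, and its chain genes col6a1 and col6a2 differed by both genotype and exposure. Levels of col6a2 were 9.72, 13.2, 11.5, 13.0 and 9.31 CPM in unexposed wild type and 22.4, 21.6, 20.7, 29.3 and 17.8 CPM in unexposed mutants. Exposed libraries held 2.54 to 4.59 CPM in wild type (median 3.84) and 3.75, 1.48, 1.89, 2.79 and 3.21 CPM in mutants. Without arsenite each mutant library was above each wild-type library, and in both genotypes exposed libraries were below all unexposed ones. The gene was higher in unexposed mutants by 0.98 ± 0.21 (edgeR adjusted p = 0.00374) and fell with arsenite by 1.61 ± 0.22 in wild type (edgeR adjusted p = 3.62e-06) and in mutants fell by 3.09 ± 0.23 (edgeR adjusted p = 4.31e-10). The fall was larger in mutants by a log2 difference of -1.48 ± 0.30 (edgeR adjusted p = 0.00806), and it differed in the same direction and passed under every alternative run (edgeR or DESeq2 adjusted p from 0.000265 to 0.0194), except that the filter at a mean of 10 CPM left the gene untested. The unexposed mutant libraries enter both the genotype difference and the mutant response. In exposed larvae the genotypes overlapped (log2 difference -0.51 ± 0.22, edgeR adjusted p = 0.106), though this passed without exposed mutant replicate 1 (-0.67, edgeR adjusted p = 0.0351) or exposed wild-type replicate 4 (-0.62, edgeR adjusted p = 0.0499).

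The partner chain gene col6a1, which lies close to col6a2 with 2 annotated genes starting between them in a RefSeq table of a later assembly (GRCz12tu), held 56.9, 61.4, 82.4, 79.8 and 37.3 CPM in unexposed wild type and 109.9, 119.8, 116, 110.4 and 191 CPM in unexposed mutants. Exposed libraries held 20.7, 13.3, 30.6, 18.6 and 28.2 CPM in wild type and 55.2, 19.9, 13.2, 21.6 and 31.8 CPM in mutants. Unexposed mutants again lay above all unexposed wild-type libraries, and exposed libraries below the unexposed ones of their genotype. The genotype difference without arsenite was 1.03 ± 0.31 (edgeR adjusted p = 0.0328). It was not called without unexposed wild-type replicate 1 (edgeR adjusted p = 0.0767) or 5 (0.0875), or without unexposed mutant replicate 5 (0.0891), with log2 differences of 0.99, 0.88 and 0.84. Arsenite lowered col6a1 by a log2 difference of -1.51 ± 0.32 in wild type (edgeR adjusted p = 0.000474) and of -2.19 ± 0.32 in mutants (edgeR adjusted p = 6.35e-06), and these responses did not differ in the test (-0.68 ± 0.44, edgeR adjusted p = 0.441). Another chain gene of the family, COL6A3, named after its values were seen, fell by 0.93 ± 0.24 in wild type (edgeR adjusted p = 0.00252) and in mutants fell by 1.29 ± 0.24 (edgeR adjusted p = 8.94e-05), from 13.3 ± 2.14 and 15.4 ± 1.61 CPM (SD, n = 5) without arsenite. Its genotype difference without arsenite was 0.21 ± 0.23 (edgeR adjusted p = 0.608).

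The fibronectin gene fn1a, a cell-adhesive glycoprotein of matrix and plasma, had 19099 to 201167 counts per library. Its levels were 4673, 6190.5, 5238, 6047 and 6104 CPM in unexposed wild type and 5177, 5196, 5619, 5780.4 and 5876 CPM in unexposed mutants. With arsenite wild type held 756, 1241, 1391, 1259.9 and 1902 CPM and mutants 514, 315, 443, 374 and 551 CPM. The unexposed genotypes overlapped, while each exposed mutant library was below each exposed wild-type library. On the log2 scale fn1a fell by 2.11 ± 0.19 in wild type (edgeR adjusted p = 1.79e-08) and in mutants fell by 3.65 ± 0.20 (edgeR adjusted p = 7.46e-12). The genotype difference was -0.03 ± 0.18 without arsenite (edgeR adjusted p = 0.935) and -1.58 ± 0.18 with it (edgeR adjusted p = 3.90e-06). The fall was larger in mutants by -1.55 ± 0.26 (edgeR adjusted p = 0.00217), which was called in each alternative (adjusted p from 4.20e-06 to 0.00907). The other fibronectin gene, its paralogue FN1 (ENSDARG00000019815), was named after its values were seen and was not called for arsenite. It was at 6.61 ± 2.98 and 5.01 ± 1.62 CPM (SD, n = 5) in unexposed and exposed wild type and 6.26 ± 2.80 and 4.59 ± 2.45 CPM in mutants. The log2 differences were -0.40 ± 0.36 and -0.44 ± 0.35 (edgeR adjusted p = 0.366 and 0.287). Reads could be shared between fn1a and this paralogue. Beside fn1a, 23 hepatocyte marker genes all fell in both genotypes, and their summed level went from 313552 to 337429.6 CPM down to 89413 to 155309.9 in wild type and from 265220.4 to 296051 CPM down to 51662 to 76868 in mutants. Among all tested genes 24.6% and 30.3% were called down in wild type and mutants. With total counts 21 and 20 of the 23 were called down, where 8.01% and 12.0% of tested genes were.

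The gene sparc encodes a secreted calcium-binding glycoprotein that binds collagen. Levels were 24.0, 26.6, 24.8, 23.7 and 26.8 CPM in unexposed and 12.9, 13.6, 10.5, 10.3 and 13.1 CPM in exposed wild type. In mutants they were 27.8, 23.5, 26.3, 24.3 and 24.9 CPM unexposed and 12.1, 8.83, 8.35, 8.43 and 11.4 CPM exposed. Neither genotype showed overlap between doses, and the coefficient of variation within unexposed groups was 5.79% and 6.63%. The gene fell by 1.06 ± 0.12 in wild type (edgeR adjusted p = 2.32e-07) and in mutants fell by 1.37 ± 0.12 (edgeR adjusted p = 2.95e-09). With total counts both falls stayed called but shrank to log2 differences of -0.34 and -0.54 (edgeR adjusted p = 0.00618 and 7.71e-05). Exposed genotypes differed by -0.30 ± 0.11, which was not called (edgeR adjusted p = 0.0699), but was called without exposed mutant replicate 1 or 5 or exposed wild-type replicate 3 or 4 (edgeR adjusted p = 0.0205, 0.0427, 0.0492 and 0.0423).

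**Figure D2:**
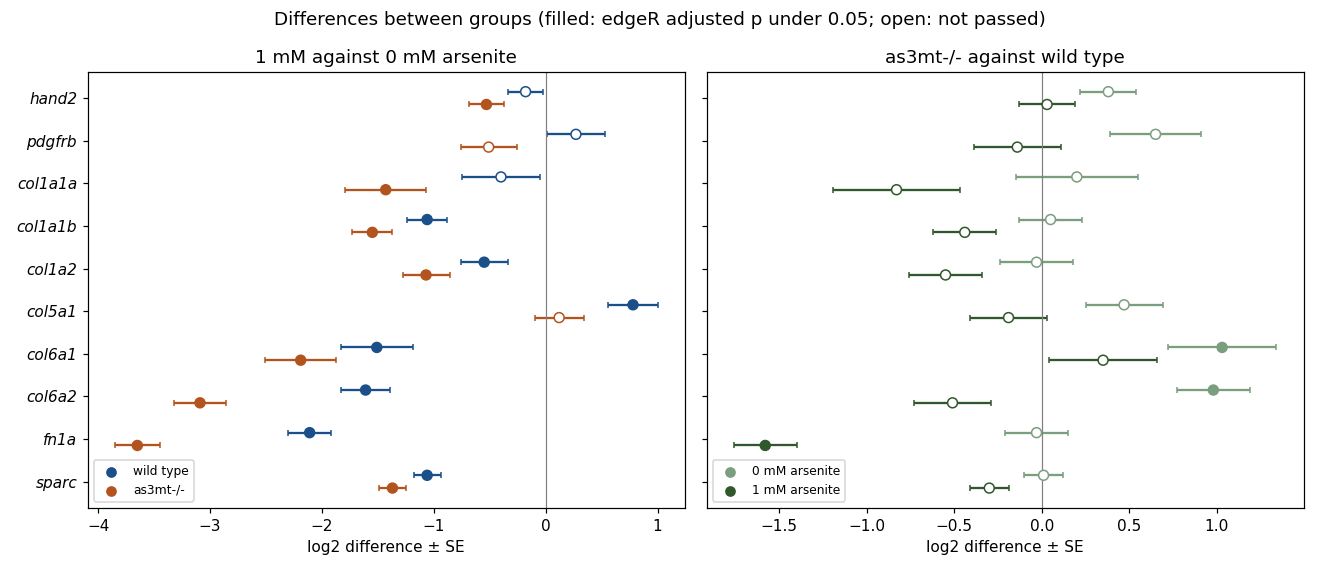
Log2 differences ± SE (x axis) of the 10 genes (y axis) for arsenite against no arsenite within each genotype (left) and for mutants against wild type at each dose (right), from the edgeR fit to all 20 libraries. Filled points have an adjusted p under 0.05; on the right these are col6a1 and col6a2 without arsenite and fn1a with it.

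Across genotypes, 2 of the 10 genes (col6a1 and col6a2) were higher in unexposed mutants and none was lower, where 5.91% of tested genes were called up, 7.91% down and 13.8% either way. With arsenite fn1a alone was called, lower in mutants, where 12.9% of tested genes were called down, 7.68% up and 20.6% either way. The responses to arsenite differed for fn1a and col6a2, both with a larger fall in mutants, where 2.67% of tested genes were called in that direction and 3.98% either way. No value for hand2 or pdgfrb passed between genotypes. Their log2 differences without arsenite were 0.38 ± 0.16 (edgeR adjusted p = 0.126) and 0.65 ± 0.26 (edgeR adjusted p = 0.102), and with arsenite 0.03 ± 0.16 and -0.14 ± 0.25 (edgeR adjusted p = 0.926 and 0.76). In the RefSeq table hand2 was the only 1 of the 10 on the chromosome of as3mt, with 106 genes starting between them.

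**Figure D3:**
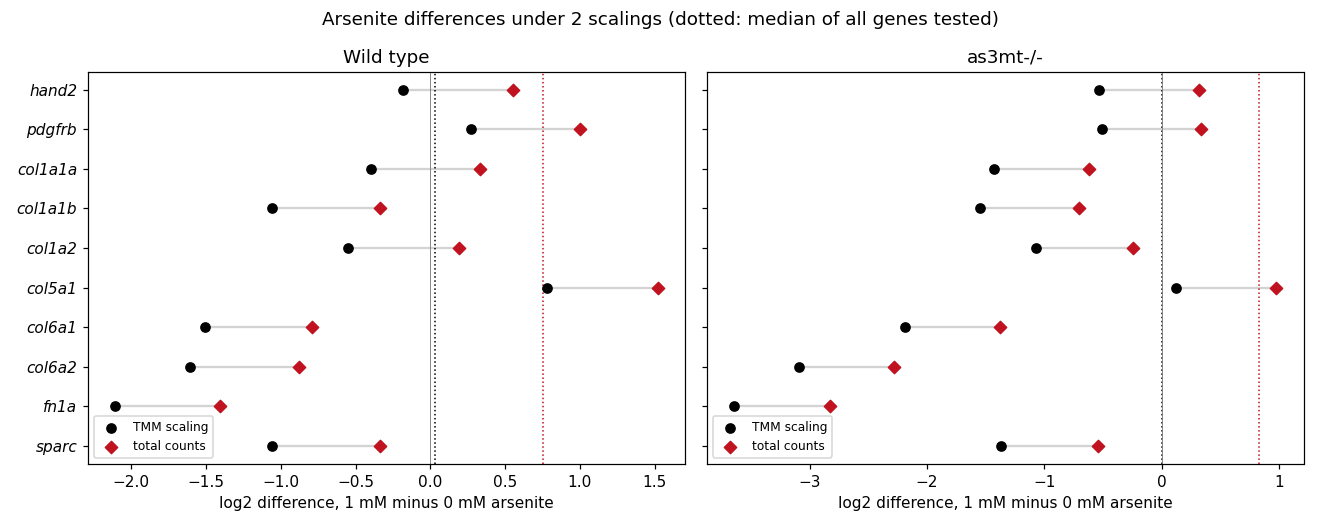
Log2 difference with arsenite (x axis) for the 10 genes (y axis) in each genotype, after TMM scaling (circles) and after scaling to total counts (diamonds), with dotted lines at the median of all tested genes under each. In wild type hand2, col1a1a and col1a2 cross 0 between the scalings, and in mutants hand2 and pdgfrb do.

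A ratio of counts within a library does not depend on how libraries are scaled, and counts per hand2 count give the matrix genes beside a stellate marker. By that ratio col6a2 went from 0.852 to 1.45 in unexposed down to 0.248 to 0.597 in exposed wild type, and from 1.31 to 2.07 down to 0.156 to 0.488 in mutants. Per hand2 count, fn1a went from 485 to 681 down to 88.8 to 295 in wild type and from 356 to 556 down to 31.6 to 83.8 in mutants. The ratio for col5a1 went up from 0.441 to 0.778 to a range of 1.05 to 1.49 in wild type, and that for sparc down from 2.41 to 2.93 to a range of 1.01 to 2.03. In all, 4 of 9 genes had ratios that did not overlap between doses in wild type (col5a1, col6a2, fn1a and sparc) and 3 of 9 in mutants (col6a1, col6a2 and fn1a). Over all other tested genes 29.6% in wild type and 40.1% in mutants had ratios to hand2 that did not overlap, so the counts among the 9 are not far from that background. The type I collagen ratios overlapped in both genotypes. A ratio shows unequal change of the pair and not which of them changed.

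After subtracting group means from log2 CPM, Pearson's r over the 20 libraries was 0.75 between col1a1b and col1a2 and 0.68 between col1a1a and col1a2, the highest of the 45 pairs, but 0.45 between col1a1a and col1a1b, below the 0.59 of col6a2 and sparc. By the same measure hand2 had r of -0.25, -0.28 and -0.20 with col1a1a, col1a1b and col1a2. For hand2 r was 0.47 with col5a1 and 0.23 with pdgfrb, and -0.49, -0.42, -0.40 and -0.18 with col6a1, fn1a, sparc and col6a2. Over all 20 libraries, which fall into exposed and unexposed sets, the genes most like fn1a were ahsg1, zgc:77439, apoc1, habp2 and SLC22A2, each with r = 0.99. The nearest to sparc were serpinf2b and QPCT at 0.99 and ITIH2, cyp2ad3 and XDH at 0.98. Several of these encode plasma proteins of hepatocytes, such as the fetuin ahsg1 and the antiplasmin serpinf2b. For hand2 the nearest were RSPO3 and LHX9, both at 0.83, and lhx9 is a LIM-homeobox factor. For col1a1a they were FRMD4B at 0.84 and wu:fc21g02 at 0.83. With group means removed, FRMD4B kept r = 0.76 with col1a1a, whereas FGD6 (0.88) and irak1 (0.86) came first for hand2, si:ch73-15n24.1 (0.96) and PBLD (0.94) for fn1a and rap1gap2a (0.86) for sparc. These values describe likeness and share library, depth and scaling.

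Beside the lists that follow, 24.6% of all tested genes were called down and 28.7% up in wild type. In mutants 30.3% were called down and 31.5% up. Other markers of stellate cells and liver mesenchyme gave counts in both directions. Of 29 tested, 12 fell, 1 rose and 16 did not pass in wild type, and 11 fell, 1 rose and 17 did not pass in mutants, but the list medians of -0.28 and -0.56 turned to 0.44 and 0.25 under total-count scaling. The lectin genes COLEC10 and COLEC11 fell by 1.24 ± 0.13 and 1.04 ± 0.17 in wild type (edgeR adjusted p = 2.03e-07 and 3.35e-05) and in mutants fell by 1.48 ± 0.13 and 1.37 ± 0.17 (edgeR adjusted p = 7.43e-09 and 7.29e-07). The neuron-derived factor gene NDNF fell by 1.78 ± 0.18 and 1.91 ± 0.18 in the same order (edgeR adjusted p = 9.47e-08 and 1.69e-08). Among contractile genes, chosen after their values were seen, MYL9 (ENSDARG00000008030), a myosin light chain, rose by 0.79 ± 0.16 and 0.63 ± 0.16 (edgeR adjusted p = 0.000247 and 0.00138). It was the only 1 of the 29 tested genes called up in each genotype, and it does not stand for the other contractile genes. Smooth muscle actin acta2, the usual activation marker, held 0.972 ± 1.01 and 0.798 ± 0.545 CPM (SD, n = 5) in unexposed and exposed wild type and 3.53 ± 2.34 and 2.07 ± 0.995 CPM in mutants, with no call for arsenite (edgeR adjusted p = 0.759 and 0.316). Between unexposed genotypes PDGFRA, also chosen after its value was seen and the other PDGF receptor, was higher in mutants by 0.87 ± 0.26 (edgeR adjusted p = 0.0291). It was the only 1 of the 29 tested called higher in that comparison, while 2 were called lower and 26 did not pass. Among all tested genes 5.91% were called up and 7.91% down there, so PDGFRA does not stand for the other markers.

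Of 24 further collagen genes tested, 12 fell and 2 rose in wild type and 15 fell and 1 rose in mutants, with medians of -0.50 and -0.82 that moved to 0.22 and 0.01 with total counts. The network collagen genes COL4A1 and COL4A2 of basement membrane fell by 0.57 ± 0.12 and 0.43 ± 0.14 in wild type (edgeR adjusted p = 0.000648 and 0.0144) and in mutants fell by 1.28 ± 0.13 and 1.12 ± 0.14 (edgeR adjusted p = 2.68e-08 and 9.01e-07), although the wild-type differences turned to 0.15 and 0.30 with total counts. The fall of COL4A1 was larger in mutants (-0.71 ± 0.18, edgeR adjusted p = 0.0271), and that of COL4A2 was not called as different (-0.69 ± 0.20, edgeR adjusted p = 0.0542). The partner of col5a1 in type V collagen, COL5A2, fell by 0.65 ± 0.09 and 0.76 ± 0.09 in wild type and mutants (edgeR adjusted p = 6.95e-06 and 6.04e-07), with total-count differences of 0.07 and 0.08.

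Genes that fold, cross-link and trim collagen split both ways. Of 38 tested, 16 fell and 6 rose in wild type, and 19 fell and 9 rose in mutants (medians -0.25 and -0.66, and 0.47 and 0.18 with total counts). The cross-linking oxidase gene LOXL1 went from 11.3 ± 3.30 to 3.92 ± 0.578 CPM (SD, n = 5) in wild type and from 16.6 ± 1.45 to 2.13 ± 0.322 CPM in mutants, a log2 difference of -1.53 ± 0.17 and -2.96 ± 0.18 (edgeR adjusted p = 4.20e-07 and 4.23e-11). Like col6a2, LOXL1 was higher in unexposed mutants (0.55 ± 0.17, edgeR adjusted p = 0.0339) and fell more in mutants (-1.43 ± 0.24, edgeR adjusted p = 0.00256). Of the 38 genes, 5 were called higher and 2 lower in unexposed mutants, where 5.91% and 7.91% of all tested genes were. For the difference of responses 1 was called up and 3 down, where 1.31% and 2.67% of all tested genes were. The procollagen C-proteinase BMP1 (ENSDARG00000028071) fell by 1.13 ± 0.14 and 1.93 ± 0.14 (edgeR adjusted p = 1.39e-06 and 5.77e-10), and its enhancer pcolcea by 0.54 ± 0.08 and 0.85 ± 0.08 (edgeR adjusted p = 2.02e-05 and 3.35e-08, but 0.19 and -0.01 with total counts).

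Of 44 further matrix glycoproteins and proteoglycans, 24 fell and 2 rose in wild type and 27 fell and 2 rose in mutants, with medians of -0.81 and -0.99 that remained below 0 at -0.08 and -0.16 with total counts. The elastic fibre gene fbln5 fell by 2.08 ± 0.23 and 3.19 ± 0.24 (edgeR adjusted p = 2.57e-07 and 5.08e-10) and IGFBP7, a secreted growth factor-binding protein, by 2.16 ± 0.18 and 2.62 ± 0.18 (edgeR adjusted p = 7.55e-09 and 2.17e-10). Basement membrane genes numbered 27, with 9 down and 3 up in wild type and 15 down and 3 up in mutants (medians -0.24 and -0.84, and 0.48 and -0.05 with total counts). Among them NID1 (ENSDARG00000068710), a laminin-binding nidogen, went from 1388 ± 72.6 to 408 ± 145 CPM in wild type and from 1318 ± 109 to 272 ± 51.0 CPM in mutants (SD, n = 5; log2 differences -1.77 ± 0.18 and -2.28 ± 0.18, edgeR adjusted p = 9.27e-08 and 1.35e-09).

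**Figure D4:**
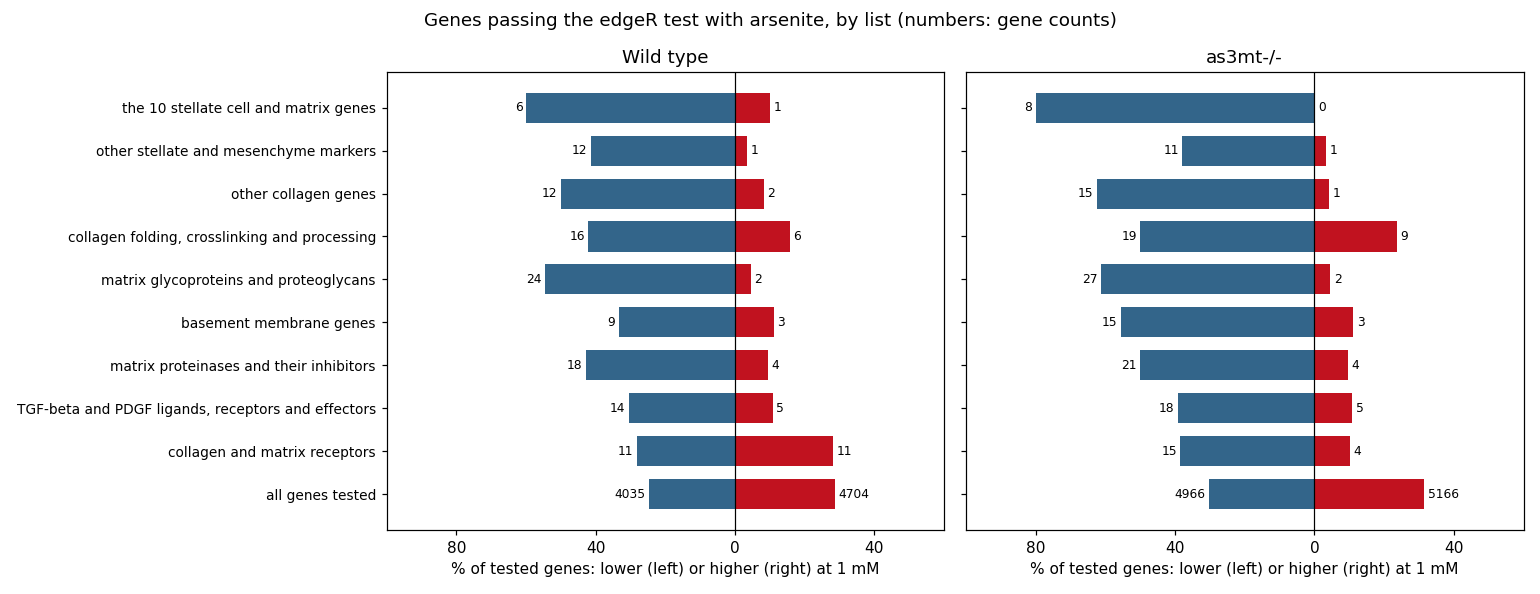
Share of tested genes (x axis, %) called lower (blue, to the left) or higher (red, to the right) at 1 mM arsenite for the 10 genes, 8 related lists and all tested genes (y axis), with the number of genes beside each bar. After TMM scaling more of the collagen and glycoprotein genes are lower than higher, while all tested genes are split 4035 down and 4704 up in wild type; with total counts that split is 1313 down and 9740 up.

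Of 42 proteinase and inhibitor genes, 18 fell and 4 rose in wild type and 21 fell and 4 rose in mutants (medians -0.42 and -0.75, and 0.29 and 0.08 with total counts). The membrane proteinase gene MMP23B fell by 2.88 ± 0.25 and 4.11 ± 0.27 (edgeR adjusted p = 1.37e-08 and 7.99e-11). Of 46 TGF-beta and PDGF genes, 14 fell and 5 rose in wild type and 18 fell and 5 rose in mutants (medians -0.19 and -0.41, and 0.53 and 0.44 with total counts). The TGF-beta receptor gene TGFBR2 (ENSDARG00000034541) fell by 1.26 ± 0.15 and 2.19 ± 0.16 (edgeR adjusted p = 1.00e-06 and 3.39e-10), and SKIL, which restrains SMAD signalling, rose by 1.82 ± 0.26 and 2.26 ± 0.26 (edgeR adjusted p = 7.76e-06 and 2.16e-07). Matrix receptors and adhesion genes, 39 in all, gave 11 down and 11 up in wild type and 15 down and 4 up in mutants (medians -0.01 and -0.47, and 0.73 and 0.38 with total counts). These counts stand beside 24.6% down and 28.7% up among all tested genes in wild type, and 30.3% and 31.5% in mutants.

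With total counts more genes of each list were called up than down, except for glycoproteins in both genotypes and other collagens in mutants. In wild type they were 5 down and 8 up for stellate markers, 5 and 6 for other collagens, 6 and 16 for collagen folding, 10 and 4 for glycoproteins, 2 and 12 for basement membrane, 9 and 14 for proteinases, 2 and 23 for TGF-beta and PDGF genes and 4 and 23 for receptors. In mutants they were, in that order, 5 and 8, 7 and 6, 11 and 14, 14 and 4, 3 and 7, 10 and 13, 5 and 18, and 6 and 18. All tested genes were split 1962 down and 9842 up in mutants with total counts.

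Markers of other cell types are given beside these results. Among all tested genes 24.6% were called down and 28.7% up in wild type, and 30.3% and 31.5% in mutants. With total counts these shares were 8.01% and 59.4% in wild type, and 12.0% and 60.1% in mutants. Of 25 endothelial genes 21 fell and 1 rose in each genotype (with total counts 4 fell and 3 rose in wild type, and 11 fell and 2 rose in mutants), and their 27 counted genes summed to 319 to 452 CPM in unexposed and 193 to 236 CPM in exposed wild type, and to 363 to 426 and 140.4 to 154 CPM in mutants. The 42 other stellate markers summed to 289 to 567, 188 to 232, 286 to 371 and 181 to 219 CPM in unexposed wild type, exposed wild type, unexposed mutants and exposed mutants. The 567 is unexposed wild-type replicate 1, with the other 4 of its group at 289 to 324, and the same library held 659.8 CPM of macrophage and neutrophil markers against 39.0 to 75.3. Without it the 10 genes gave 7 calls for arsenite in wild type and 1 in place of 2 between unexposed genotypes, where col6a1 was lost. Of 11 tested cartilage, notochord and fin markers, 3 fell and 1 rose in wild type and 4 fell and 1 rose in mutants, and the sums of the 23 counted were 151 to 172, 92.5 to 125, 159 to 178 and 83.4 to 109 CPM in the same order. With total counts 0 of these 11 fell and 2 rose in each genotype. The cartilage collagen gene COL2A1 (ENSDARG00000011407) was at 5.49 ± 1.37 CPM in unexposed wild type and 1.35 ± 0.776 CPM in unexposed mutants (SD, n = 5). Between unexposed genotypes 2 of the 11 markers were called lower in mutants, 0 higher, and 9 did not pass. Among all tested genes 7.91% were called down and 5.91% up there. With total counts 2 of the 11 were called lower and 3 higher, where 669 and 1917 of 16389 tested genes were. Exocrine pancreas markers summed to 33.9 to 210.3 and 17.6 to 49.7 CPM in unexposed and exposed wild type and to 103 to 1378 and 14.4 to 625 CPM in mutants. Of 13 tested, 1 was called higher in mutants without arsenite and 4 with it, and 0 lower. Among all tested genes 5.91% and 7.68% were called up. With total counts 3 and 9 were called higher and 0 lower, where 1917 and 4294 of 16389 tested genes were called up. With arsenite 1 of the 13 fell in wild type and 2 in mutants, and 0 rose. With total counts 1 fell in wild type and 0 in mutants, and 0 rose. Macrophage and neutrophil markers summed to 28.3 to 73.3 CPM in exposed wild type, and to 40.1 to 229 and 34.2 to 78.7 CPM in unexposed and exposed mutants. Of 26 tested, 9 fell and 1 rose in wild type and 6 fell and 3 rose in mutants. With total counts 3 fell and 2 rose in wild type, and 2 fell and 4 rose in mutants. Intestine and swim bladder markers went from 3609.9 to 5895 down to 1091 to 1556 CPM in wild type and from 3069 to 5116 down to 601 to 1048 CPM in mutants. Of 12 tested genes, 6 fell and 2 rose in wild type and 6 fell and 1 rose in mutants. With total counts 2 fell and 4 rose in wild type, and 4 fell and 4 rose in mutants. Biliary markers summed to 2449 to 2836 and 2491 to 3625 CPM in wild type and to 2086 to 2513 and 2595 to 3434 CPM in mutants. Of 14 tested biliary genes, 5 fell and 2 rose in wild type and 5 fell and 3 rose in mutants. With total counts 0 fell and 8 rose in wild type, and 1 fell and 8 rose in mutants. Cell cycle genes summed to 120.4 to 179 and 369.9 to 810.2 CPM in wild type and to 144 to 233 and 375 to 630.2 CPM in mutants, and of 24 tested 22 rose in wild type, while 18 rose and 4 fell in mutants. With total counts 24 rose in wild type and 20 in mutants, and 0 fell in either. None of these markers was at 0 in all 20 libraries. Their part in the values of the 10 genes was not tested.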

How the data were processed

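The files hold raw whole-number counts per Ensembl gene, deposited by the authors as 1 table per library. Per the submitters' processing notes, FastQC 0.11.5 and Trimmomatic 0.36 were used with genome build GRCz10; which aligner, counter, annotation and strand setting were used is not given in the sources used here. More than 1 library kit is named in the labels, so overlapping and antisense genes may share reads. Symbols came from a gene name table matching 26269 identifiers; coordinates are not given because the RefSeq table is of another build, and no sequences were at hand.

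Genes kept by filterByExpr were scaled by TMM and fitted with 4 group means over all 20 libraries in edgeR 4.0.16 (R 4.3.3; common biological coefficient of variation 0.28). The 5 comparisons used 2-sided quasi-likelihood F tests, whose p-values were adjusted by Benjamini-Hochberg across every tested gene and called under 0.05; SE is the absolute log2 difference over the square root of F. The arsenite comparisons were tested on simulated data in which few genes changed, as many up as down. That setting differs from these data, where 53.3% and 61.8% of tested genes were called, so it does not check the scaling. Likeness used log2 CPM with a prior count of 2 and a minimum mean of 1 CPM. DESeq2 1.42.0, other scalings, filters, blocks and left-out libraries were alternatives. The 10 genes and the lists were chosen with earlier results of these data known. Genes of the matrix lists were named from the up to 4 per list with the smallest adjusted p in any comparison; COL6A3, MYL9, acta2, PDGFRA and the second FN1 fall outside that rule and were named after their values were seen. Replicates of a group differed beyond counting noise. Averaged over genes, the squared difference within each pair of libraries was at least 34.1 times that of counting noise. This average is not a minimum for single genes.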

Additional observations from a re-analysis of the deposited data

Results flagged for a closer look

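Each of the 40 sets of 5 libraries (10 genes in 4 groups) was examined for 1 library standing far from the others, and 3 were found; chance alone flags about 1 in 20. In exposed wild type, replicate 3 held 13.5 CPM of col1a1a, against 4.27 to 6.83 in the other 4. In the same group replicate 5 held 6.78 CPM of col5a1, below the other 4 at 11.3 to 12.5, and among unexposed mutants replicate 5 held 191 CPM of col6a1, above 109.9 to 119.8. The low col5a1 library stood against the rise, so leaving it out could only enlarge the rise (log2 difference 0.87 against 0.78). Without exposed wild-type replicate 3, col1a1a was called lower with arsenite in wild type (-0.80, edgeR adjusted p = 0.0493). Without unexposed mutant replicate 5, col6a1 was no longer called between unexposed genotypes (0.84, edgeR adjusted p = 0.0891).

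The arsenite responses differed between genotypes for col6a2, by a log2 difference of -1.48 (mutant minus wild type), and for fn1a, by -1.55, in the test of the difference itself. For col6a2 the unexposed groups already differed and the exposed ones overlapped, whereas for fn1a the unexposed groups overlapped and the exposed ones did not.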

How the results depend on the processing

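Of 1136 values of the 10 genes and as3mt under another setting, 1070 kept their direction and their side of the threshold, and 33 changed sign. Of those that kept their sign, 14 lost a call and 19 gained one. Values that changed sign were counted only as such, also where a call was lost or gained. With total counts and arsenite in wild type, col1a2 so lost a call and hand2 gained one. Scaling to total counts turned the log2 difference with arsenite to 0.55 for hand2, 0.33 for col1a1a and 0.19 for col1a2 in wild type, and to 0.32 for hand2 and 0.34 for pdgfrb in mutants. The same scaling gave 0.14 for col1a2 and 0.14 for fn1a between unexposed genotypes, 0.09 for col5a1 and 0.14 for pdgfrb between exposed ones, and 5470 calls over all genes in exposed larvae against 3369. Between unexposed genotypes the values near 0 changed sign for col1a2 (0.00, fit to those groups alone), fn1a (0.06, mean of at least 10 CPM) and sparc (-0.01 with DESeq2 size factors and -0.01 with DESeq2). A filter at a mean of 10 CPM left 4 of the 10 genes tested, and the calls were 4 and 4 for arsenite in wild type and mutants, 1 between unexposed genotypes and 1 for the difference of responses, with 4511, 4959, 1094 and, between exposed genotypes, 1969 calls over all genes. DESeq2 called 1083 genes for the difference of responses against 652. Leaving out unexposed wild-type replicate 4 and exposed wild-type replicate 3 together, chosen after seeing the data, gave -0.03 for col1a1b and -0.01 for sparc between unexposed genotypes and 403 genes for the difference of responses. Leaving out 1 library at a time gave 6 to 8 and 8 to 9 of the 10 genes called for arsenite in wild type and mutants, 1 to 2 between unexposed and 1 to 3 between exposed genotypes, and 383 to 793 genes in all for the difference of responses. Over the same fits log2 differences ran from -0.08 to 0.21 for col5a1 with arsenite in mutants, and between unexposed genotypes from -0.10 to 0.19 for col1a1b, -0.13 to 0.09 for col1a2, -0.09 to 0.00 for fn1a and -0.02 to 0.04 for sparc. Between exposed genotypes they ran from -0.10 to 0.12 for hand2, -0.04 to 0.53 for col6a1 and -0.28 to 0.09 for pdgfrb. Replicate numbers are shared across groups, but same-numbered libraries did not all deviate together (r from -0.08 to 0.40). Between doses in wild type, between doses in mutants and between exposed genotypes, 4 of 5 libraries matched their own number best. In the other pairs of groups 1 to 3 of 5 did. Since not every same-numbered pair deviated together, the numbers were not taken as pairs in the main fit. A replicate block called 2 of the 10 genes between exposed genotypes, adding sparc (-0.30, edgeR adjusted p = 0.0391), and 8989, 10317, 2595, 3765 and 896 genes over the 5 comparisons. Where no cause is plain from how a setting is built, the cause was not tested. The gene with the fewest counts was pdgfrb, at 31 to 160 per library.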

Other observations

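Between unexposed genotypes 3 of 42 matrix proteinase and inhibitor genes, 5 of 46 TGF-beta and PDGF genes and 4 of 39 receptor genes were called, where 13.8% of all tested genes were. For the difference of responses the counts were 1, 4 and 1, where 3.98% of all tested genes were called. The genes described here have the smallest adjusted p of those lists, so they do not stand for the lists. RECK, a membrane inhibitor of matrix metalloproteinases, was at 189.7 ± 55.3 CPM in unexposed wild type and 57.0 ± 12.7 in unexposed mutants (SD, n = 5; log2 difference -1.73 ± 0.19, edgeR adjusted p = 3.33e-06), and at 48.1 ± 7.44 and 10.1 ± 0.58 CPM with arsenite (-2.25 ± 0.19, edgeR adjusted p = 7.04e-08). The type I TGF-beta receptor gene TGFBR1 (ENSDARG00000017494) was at 15.6 ± 1.53 and 7.56 ± 1.90 CPM without arsenite and at 5.14 ± 1.11 and 1.15 ± 0.22 CPM with it, and its fall was larger in mutants (-1.12 ± 0.25, edgeR adjusted p = 0.0181). The PDGF-B ligand gene pdgfba, which acts on the pdgfrb receptor, fell by 0.79 ± 0.22 in wild type (edgeR adjusted p = 0.00544, but -0.06 with total counts) and by 2.22 ± 0.23 in mutants (edgeR adjusted p = 5.28e-08), a larger fall by -1.43 ± 0.31 (edgeR adjusted p = 0.0139). ITGA4, an integrin subunit that binds fibronectin, rose in both, from 6.63 ± 1.16 to 19.5 ± 3.77 CPM in wild type and from 3.80 ± 0.726 to 12.1 ± 0.853 CPM in mutants (1.55 ± 0.16 and 1.67 ± 0.16, edgeR adjusted p = 9.15e-08 and 1.67e-08).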
